A study of Mus musculus with 84 samples.

Results

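The genes of glucose breakdown and of the response to low oxygen were followed in microglia, the resident macrophages of the brain, after severe traumatic brain injury in mice. The 32 members, of 49671 genes in the count files, were found by their mouse Ensembl identifiers. They comprise 3 hexokinases, 7 genes of the upper and 6 of the lower glycolytic steps, 2 regulators of fructose bisphosphate, 4 genes of pyruvate and lactate, 2 glucose transporters, 3 oxygen sensing genes and 5 hypoxia targets. All 32 passed the filter on low counts in every comparison.

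Glycolysis splits glucose into pyruvate in the cytosol, yields energy without oxygen, and ends in lactate when pyruvate does not enter the mitochondria. When oxygen is short, prolyl hydroxylases of the Egln family no longer mark the hypoxia-inducible factor for destruction, and the factor switches on many glycolytic enzymes, glucose transporters and vascular growth factors. Macrophages and microglia are known to turn on much of the same set of genes when inflammatory signals activate them, also with oxygen present.

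Microglia had been sorted by flow cytometry, and bulk RNA was sequenced in 84 libraries. On each of days 1, 7, 14, 30 and 60 there were 4 treatments: no injury (called Sham in the titles and Naiive or Naive in the library names, so whether these mice had a sham operation is not settled by the labels), injury only, injury with vehicle liposomes, and injury with liposomes carrying clodronate, a bisphosphonate that kills phagocytes which take it up. Clodronate served to deplete peripheral monocytes, and the question was how microglial expression changes without them. Groups held 2 to 5 libraries of 1 library year; the day 1 vehicle and clodronate libraries carry an earlier or a later year in their names (5 libraries each), the uninjured and injury-only libraries of day 1 have the earlier one, and at day 14 the liposome libraries have a later year than the others. The labels name no strain, sex or age of the mice and no sorting gates. The labels do not say that libraries of a group came from separate animals, so p-values measure the spread between libraries, which may be partly technical.

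Gene counts per library ranged from 1109856 to 18654785. The shallowest libraries were a vehicle library of day 60 (1109856) and vehicle library 4 of day 7 (1134078, with 54.62% of reads uniquely aligned), and at day 60 the injury-only libraries (8431455 to 12306417) were deeper than the uninjured ones (2930843 to 3739798). The summed level of 5 microglial markers (Tmem119, P2ry12, Cx3cr1, Sall1 and Siglech) was between 4997 and 17987 CPM (counts scaled to library size and composition) in all libraries but one. The library labelled uninjured 3 of day 14 had 718 CPM of these markers, 5407 CPM of 6 monocyte markers and 6250 CPM of 6 neutrophil markers, where the other uninjured libraries of that day had 50.8 to 76.6 and 7.65 to 7.86 CPM. In bulk RNA, a change in the share of a cell type and a change in RNA per cell cannot be told apart.

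The promoters of the 4 members with an available sequence that rose most at day 1 (Slc2a6, Vegfa, Pkm and Egln3) are shown, because hypoxia-inducible factor is known to bind short motifs near the genes it controls. Each is the run of 250 bases before the transcription start from RefSeq (build GRCm38.p6), written 5′ to 3′ on the gene's strand. Capitals mark the core motifs ACGTG and GCGTG, searched on both strands (a CACGTG holds ACGTG on each strand and counts as 2).
Slc2a6, chr2:27027999-27028248, minus strand: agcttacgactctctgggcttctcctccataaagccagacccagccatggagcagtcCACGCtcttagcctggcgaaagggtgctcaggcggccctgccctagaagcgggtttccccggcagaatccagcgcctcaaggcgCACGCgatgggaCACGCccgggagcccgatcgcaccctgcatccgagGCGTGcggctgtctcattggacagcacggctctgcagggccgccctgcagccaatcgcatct
Vegfa, chr17:46032378-46032627, minus strand: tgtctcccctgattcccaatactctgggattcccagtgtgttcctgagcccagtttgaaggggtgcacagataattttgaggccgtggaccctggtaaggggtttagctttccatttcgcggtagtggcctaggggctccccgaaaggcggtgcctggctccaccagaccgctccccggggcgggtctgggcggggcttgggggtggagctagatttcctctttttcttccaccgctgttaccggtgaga
Pkm, chr9:59656326-59656575, plus strand: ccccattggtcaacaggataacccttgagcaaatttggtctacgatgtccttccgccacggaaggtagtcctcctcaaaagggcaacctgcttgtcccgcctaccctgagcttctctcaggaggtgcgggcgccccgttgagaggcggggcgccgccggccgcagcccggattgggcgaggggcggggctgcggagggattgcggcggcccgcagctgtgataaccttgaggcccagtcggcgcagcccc
Egln3, chr12:54203875-54204124, minus strand: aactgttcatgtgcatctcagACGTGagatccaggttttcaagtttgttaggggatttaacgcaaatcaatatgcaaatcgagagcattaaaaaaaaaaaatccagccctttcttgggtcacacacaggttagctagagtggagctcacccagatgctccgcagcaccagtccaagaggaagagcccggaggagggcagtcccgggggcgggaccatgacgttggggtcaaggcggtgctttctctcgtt

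The Slc2a6 window held 4 motifs and that of Egln3 held 1, while those of Vegfa and Pkm held 0. Of the 31 members with a promoter entry (Slc2a3 had none), 23 had at least 1 motif in this window and 13 had 2 or more; with 5 motifs each, Ldha and Bnip3 had the most. Over all 32851 entries 38.6% had at least 1 motif. Among members with an entry, 12 of 19 that rose at day 1, 6 of 6 that fell and 5 of 6 that did not pass the test had a motif. A match says nothing of binding, and where a gene has several starts the entry nearest to the annotated gene start was used.

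In uninjured microglia of day 1 the level per kilobase of exon differed widely between members. Ldhb, which favours the use of lactate, was highest at 441 CPM per kilobase, followed by Aldoa (166), P4ha1 (126), Ldha (104) and Pkm (92.3). Hk3 (56.3), the hexokinase known from myeloid cells, stood above Hk2 (11.7) and Hk1 (7.51). The liver-type phosphofructokinase Pfkl (29.0) stood above Pfkm (2.61) and Pfkp (0.584). The lowest values were those of Vegfa (0.950), Eno2 (0.793), Pfkp and Egln3 (0.432).

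One day after injury, most glycolytic enzymes and both glucose transporters rose together, while of the 5 hypoxia targets 2 rose and 2 fell. Of the 32 members 20 rose (18.5% of all 14516 genes tested rose) and 6 fell (15.3% of all genes fell), and the median log2 fold change was 0.91 against 0.00 over all genes. By role, all 6 lower glycolytic genes rose (log2 fold changes 0.65 to 1.75), 5 of the 7 upper ones rose, both glucose transporters rose, and no hexokinase rose. The 16 enzymes from hexokinase to pyruvate kinase summed to 4414 to 6658 CPM in the 5 injury-only libraries and to 2445 to 2931 CPM in the 5 uninjured libraries, and the groups did not overlap.

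**Figure D1:**
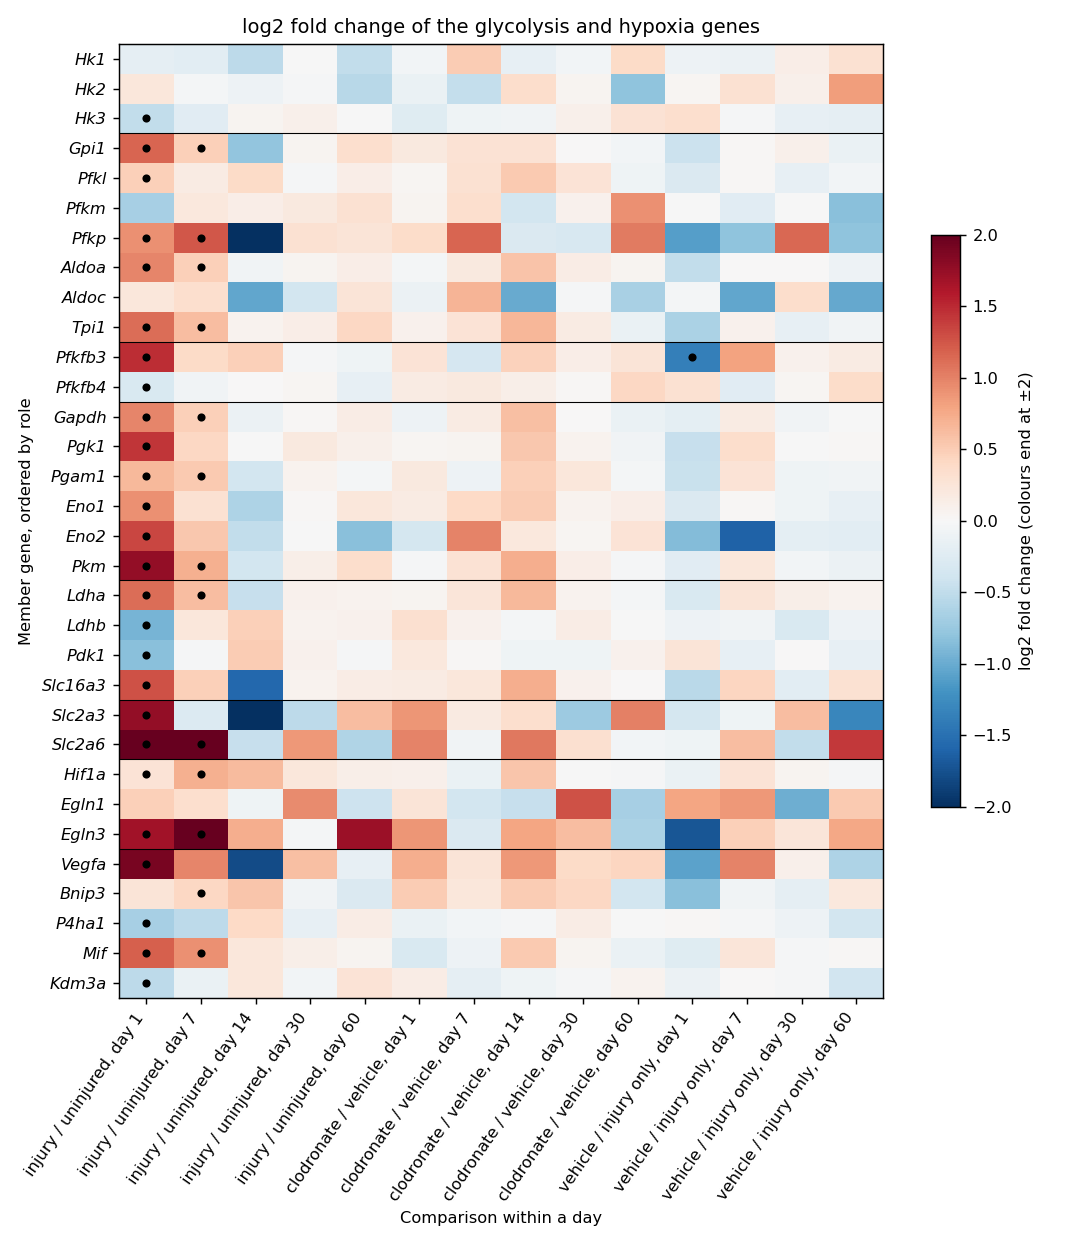
Colours give the log2 fold change of each member (rows, ordered by role, with lines between roles) in each of the 14 comparisons within a day (columns), and black points mark members with an adjusted p under 0.05. Points fill most of the day 1 injury column (26 members) and part of the day 7 injury column (13), and outside these columns the 1 point is Pfkfb3 in vehicle against injury only at day 1.

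Both glucose transporters rose. Slc2a6, a hexose transporter of lysosomal membranes also called GLUT6, read 24.1, 9.47, 28.2, 17.2 and 16.8 CPM in injury-only libraries 1 to 5 and 5.06, 4.86, 5.62, 2.08 and 3.88 CPM in the uninjured ones. Every injured library lay above every uninjured one, although injured library 2 was low; the log2 fold change was 2.13 (SE 0.29, adjusted p = 7.11e-06 by edgeR's quasi-likelihood test). Slc2a3, the high-affinity glucose transporter GLUT3, read 28.8, 27.2, 21.2, 22.1 and 25.1 CPM after injury and 5.65, 8.48, 8.30, 6.32 and 7.58 CPM without it. These groups were far apart (log2 fold change 1.75, SE 0.29, adjusted p = 6.89e-05).

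Among the enzymes, Pkm and Pfkfb3 stood out. Pkm, the pyruvate kinase of the last glycolytic step, read 1526, 1497, 1623, 1272 and 2020 CPM in injured and 528, 447, 497, 437 and 397 CPM in uninjured libraries, a log2 fold change of 1.75 (SE 0.15, adjusted p = 1.66e-08), the smallest adjusted p of any member at this day. Pfkfb3 makes the sugar bisphosphate that activates phosphofructokinase. It read 730, 698, 804, 688 and 710 CPM after injury and 296, 295, 245, 220 and 228 CPM without it, a log2 fold change of 1.47 (SE 0.17, adjusted p = 5.39e-07). Its relative Pfkfb4 went the other way by a small amount (log2 fold change -0.30, adjusted p = 0.0397), with overlapping groups. This call was lost in 7 alternatives: with no filter on low counts (adjusted p = 0.0678), with a replicate block (0.0570), and without injured library 2 or 4 or uninjured library 1, 2 or 3 (0.0566 to 0.150). The ratio of Pfkfb3 to Pfkfb4 per kilobase had a median of 7.40 in injured (5.88 to 7.50) and 2.15 in uninjured libraries (1.57 to 2.37).

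The other rises lay in the steps after hexokinase, and no hexokinase rose. Gpi1 (log2 fold change 1.16), Pfkl (0.47), Pfkp (0.92), Aldoa (0.97) and Tpi1 (1.11) rose in the upper part. Gapdh (0.97), Pgk1 (1.43), Pgam1 (0.65), Eno1 (0.91) and Eno2 (1.33) rose in the lower part, each with no overlap between the groups. Ldha, which turns pyruvate into lactate, rose by 1.12 and Slc16a3, a lactate exporter, rose by 1.27. Of all members 19 had every injured library above every uninjured one (14.9% of all genes did) and 4 had every one below (11.2% of all genes). Reads of near-identical gene copies could be counted elsewhere for a few of these. For Gapdh, 89 annotated copies share at least 95% identity with it over 200 bases or more. These copies held a median of 4.67% of its counts and at most 12.2% in any library. Copies of Mif held a median of 2.19% and at most 5.54% of its counts. For the other members this share was at most 1.09% in any library.

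Vegfa, the vascular growth factor, read 11.9, 8.79, 16.3, 13.8 and 26.4 CPM in injured and 4.64, 3.19, 5.44, 2.16 and 4.91 CPM in uninjured libraries. Its log2 fold change was 1.90 (SE 0.38, adjusted p = 3.76e-04), and injured library 5 was the highest. Egln3, an oxygen sensor that is itself a hypoxia target, rose at a low level from 1.15 ± 0.591 to 3.79 ± 1.40 CPM (SD, n = 5 each; log2 fold change 1.68). Mif, a cytokine gene, rose by 1.20. Hif1a, the oxygen-labile subunit of the factor, rose by only 0.28 (adjusted p = 0.0397), and this call was lost in 9 alternatives: with DESeq2 size factors (adjusted p = 0.0567), with no filter on low counts (0.0860), and without injured library 1, 3, 4 or 5 or uninjured library 1, 3 or 4 (0.0549 to 0.123). Egln1 (0.47) and the mitophagy receptor Bnip3 (0.26) did not pass the test.

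A smaller set fell at day 1. Ldhb read 414, 369, 380, 320 and 366 CPM in injured and 860, 686, 789, 513 and 615 CPM in uninjured libraries, with no overlap (log2 fold change -0.93, SE 0.15, adjusted p = 2.92e-05). With Ldha moving up, the ratio of Ldha to Ldhb per kilobase went from a median of 0.212 (0.196 to 0.344) to 0.933 (0.899 to 1.11). Pdk1, a kinase that holds back pyruvate dehydrogenase and a known hypoxia target, read 67.6, 54.8, 64.3, 76.2 and 74.9 CPM after injury and 115, 126, 118, 117 and 114 CPM without it (log2 fold change -0.83, SE 0.11, adjusted p = 5.75e-06). The groups of Pdk1 did not overlap.

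P4ha1, a collagen prolyl hydroxylase subunit, read 307, 314, 306, 377 and 356 CPM in injured and 411, 436, 526, 664 and 548 CPM in uninjured libraries. It fell without overlap (log2 fold change -0.66, SE 0.13, adjusted p = 3.67e-04). Kdm3a, a histone demethylase, read 81.7, 67.7, 88.1, 76.1 and 59.0 CPM in injured and 73.5, 123, 104, 108 and 118 CPM in uninjured libraries, where library 1 lay within the injured range (log2 fold change -0.52, adjusted p = 7.51e-03). Hk3 read 120, 150, 139, 181 and 161 CPM in injured and 216, 208, 221, 218 and 174 CPM in uninjured libraries, and only uninjured library 5 reached the injured range (log2 fold change -0.49, SE 0.13, adjusted p = 5.43e-03). P4ha1, Kdm3a and Pdk1 are listed as hypoxia targets or regulated by low oxygen, and their direction was opposite to that of Vegfa and Egln3. Hk1 (-0.18), Hk2 (0.22), Pfkm (-0.67, adjusted p = 0.0537) and Aldoc (0.23) did not pass the test.

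Of 98 other genes of these pathways, 89 were tested at day 1. Of these 36 rose (18.5% of all genes did) and 14 fell (15.3% of all genes did), so the falls were near the share over all genes. Other hypoxia target genes rose in 12 of 21 cases and fell in 2, and 5 of 8 genes of the pentose phosphate pathway rose while none of those tested fell. The largest changes were those of Hif3a (log2 fold change 3.73, from 0.246 to 3.42 CPM), Ddit4 (3.43, from 0.511 to 5.77 CPM), Edn1 (2.53, from 8.65 to 51.0 CPM), Ak4 (2.43, from 0.335 to 1.86 CPM) and Hilpda (2.41, from 8.55 to 46.2 CPM). The call of Ak4 was lost without injured library 2 or 5 or uninjured library 2, 3, 4 or 5 (adjusted p = 0.0538 to 0.0780). Hilpda is a lipid droplet protein and Edn1 the endothelin precursor.

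The microglial markers moved with this comparison. All 5 fell, and their sum was 6864 to 8056 CPM after injury and 14518 to 17124 CPM without it. Of 6 monocyte markers 4 of 5 tested rose, with sums of 41.3 to 196 CPM after injury and 22.5 to 50.1 CPM without it, of which F13a1 was the most abundant (71.2 and 27.2 CPM on average). Of 6 neutrophil markers 2 of 3 tested rose, with sums of 2.32 to 6.52 and 0.145 to 1.94 CPM, and Ly6g and Camp were at 0 in all these libraries. Endothelial markers summed to 83.0 to 305 and 56.0 to 124 CPM, and 2 of 6 rose. Of 6 markers each, 1 border macrophage marker (Ms4a7) and 1 neuronal marker (Snap25) fell, and among astrocyte (Gfap, Slc1a3) and oligodendrocyte markers (Cnp, Mag, Mbp, Mobp) as many rose as fell. The part of these cells in the members' changes was not tested.

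**Figure D2:**
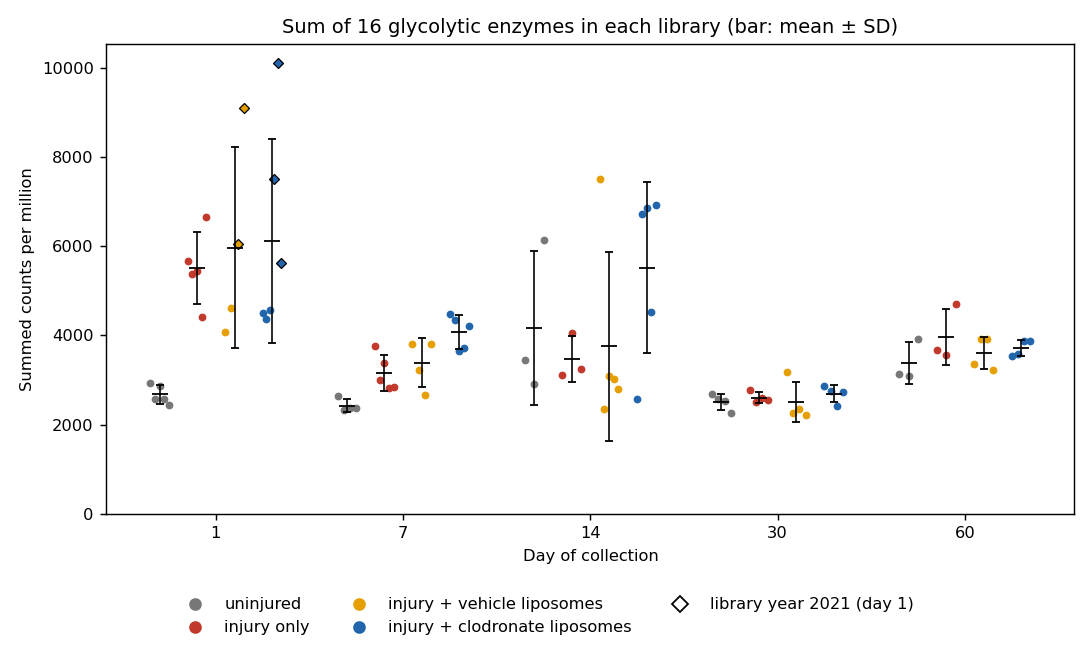
Each point is the summed CPM of the 16 glycolytic enzymes in 1 library, by day (x axis) and treatment (colour); diamonds mark the day 1 libraries of the later year, and bars give the mean ± SD of each treatment over both years. At day 1 the injury-only libraries (4414 to 6658 CPM) lie above the uninjured ones (2445 to 2931 CPM), and at day 14 vehicle library 1 (7519 CPM) and uninjured library 3 (6140 CPM) stand apart from their groups.

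At day 7 the response was smaller and had a different make-up. Of the 32 members 13 rose (6.14% of 14278 genes tested rose) and 0 fell (1.54% of all genes fell), and the median log2 fold change was 0.42 against 0.00 over all genes. By role, 4 of 7 upper and 3 of 6 lower glycolytic genes rose, and no hexokinase passed the test. The count of 13 was 9 with no filter on low counts, where the calls of Aldoa, Gapdh, Gpi1 and Bnip3 were lost (adjusted p = 0.0712 to 0.146). It was 6 without uninjured library 2, 7 without uninjured library 3 or 4 or injured library 2, and 8 without injured library 1 or 3. Slc2a6, Egln3, Mif, Pkm, Hif1a and Ldha were called in every alternative.

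The transporter Slc2a6 was again the most changed, and more so than at day 1. It read 39.9, 32.8, 35.7, 41.1 and 42.4 CPM in injury-only libraries and 3.89, 4.22, 4.64 and 4.12 CPM in the 4 uninjured libraries, which were tight and far below (log2 fold change 3.21, SE 0.23, adjusted p = 1.67e-08). Slc2a3, in contrast, was at 6.08 ± 0.740 CPM (SD, n = 5) after injury and 7.46 ± 2.38 CPM (SD, n = 4) without it and did not pass the test. Per kilobase, the median ratio of Slc2a3 to Slc2a6 was 0.0716 after injury (0.0598 to 0.0823) and 0.704 without it (0.588 to 1.13).

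Pkm read 824, 615, 672, 609 and 576 CPM in injured and 451, 386, 395 and 406 CPM in uninjured libraries of day 7 (log2 fold change 0.71, SE 0.14, adjusted p = 2.76e-03). The groups stayed apart. Hif1a read 233, 300, 191, 252 and 259 CPM after injury and 136, 158, 182 and 139 CPM without it (log2 fold change 0.71, SE 0.14, adjusted p = 3.03e-03). Mif read 53.4, 57.2, 49.0, 45.9 and 52.6 CPM after injury and 33.0, 24.0, 26.8 and 27.0 CPM without it, again with no overlap (log2 fold change 0.92, SE 0.19, adjusted p = 4.80e-03). For Hif1a, Mif and Pkm alike, every injured library exceeded every uninjured one.

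Pfkp, the platelet-type phosphofructokinase, read 40.8, 38.5, 42.2, 21.7 and 11.9 CPM in injured and 16.7, 10.8, 8.44 and 17.6 CPM in uninjured libraries, so that injured library 5 fell within the uninjured range (log2 fold change 1.24, SE 0.38, adjusted p = 0.0486). Egln3 rose by 2.05 on the log2 scale at low levels, from 0.958 ± 0.307 (SD, n = 4) to 3.92 ± 1.85 CPM (SD, n = 5). Tpi1 (0.62), Ldha (0.61), Pgam1 (0.52), Aldoa (0.48), Gapdh (0.48), Gpi1 (0.47) and Bnip3 (0.42) rose by less. Of 14 alternatives the call held in 13 for Tpi1, 9 for Pgam1, 7 each for Pfkp and Aldoa, 6 each for Gapdh and Gpi1, and 4 for Bnip3, whose call was lost also with a replicate block (adjusted p = 0.0837) and with the compared groups alone (0.0587). Of all members 11 had every injured library above every uninjured one (7.89% of all genes did), and 1, P4ha1, had every one below (6.05% of all genes); its log2 fold change was -0.52 with an adjusted p of 0.0621.

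Of the other pathway genes, 10 of 91 tested rose at day 7 (6.14% of all genes did) and 3 fell (1.54% of all genes did). None of 8 pentose phosphate genes changed by this test. The largest rises were those of Pdk4 (log2 fold change 2.50), the hydroxylysine enzyme gene Plod2 (2.47), the vasodilator peptide gene Adm (2.42), the transcriptional repressor gene Bhlhe40 (2.11) and P4ha2 (1.87). The call of Pdk4 was lost without uninjured library 1, 2 or 4 (adjusted p = 0.0554 to 0.0660) and that of Plod2 without uninjured library 1 or 3 (0.0668 and 0.0726). Only Bhlhe40 among them was above 5 CPM, at 26.4 ± 4.76 CPM (SD, n = 5) after injury and 6.19 ± 2.49 CPM (SD, n = 4) without it. Of 6 endothelial markers 5 rose, with sums of 286 to 421 CPM after injury and 111 to 170 CPM without it, and 4 of 5 microglial markers fell (sums of 8731 to 12135 and 15697 to 17987 CPM). No monocyte marker was called (sums of 28.4 to 37.5 and 28.7 to 75.0 CPM). Of 6 border macrophage markers 3 fell (Lyve1, Mrc1 and Pf4; sums of 64.7 to 135 and 84.9 to 243 CPM), 2 of 6 astrocyte markers rose (Gfap and Gja1; 161 to 223 and 163 to 170 CPM), and 1 of 5 erythroid markers tested rose (Hbb-bs; 40.3 to 111 and 23.9 to 47.7 CPM). The part of these cells in the result was not tested.

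**Figure D3:**
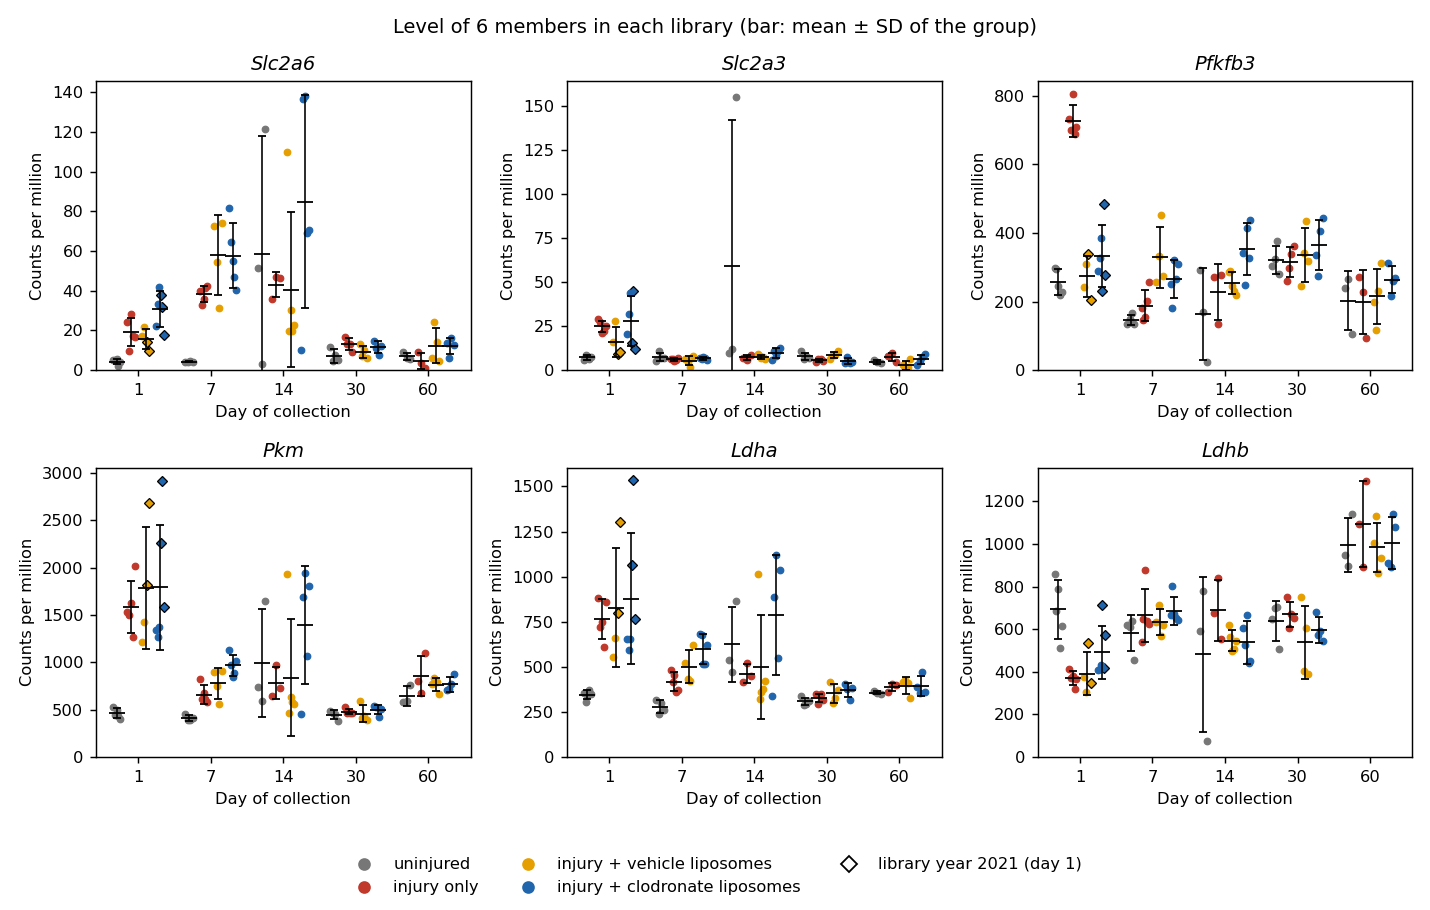
CPM of 6 members in every library (points), by day (x axis) and treatment (colour), with diamonds for the day 1 libraries of the later year and bars for mean ± SD. Slc2a3 and Pfkfb3 are high in the injury-only libraries of day 1 (21.2 to 28.8 and 688 to 804 CPM), Slc2a6 is higher at day 7 (32.8 to 42.4 CPM) than at day 1 (9.47 to 28.2 CPM) after injury, and Ldhb is lower after injury at day 1 (320 to 414 CPM).

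The injury effects of the 2 days were compared directly in the uninjured and injury-only libraries of both. The effect was more positive at day 1 for 9 members (10.5% of 14041 genes tested) and less positive for 4 (9.09% of genes). The largest difference was that of Slc2a3, with a log2 fold change larger by 2.02 at day 1 (SE 0.26, adjusted p = 8.27e-06). Pfkfb3 (1.09, SE 0.18, adjusted p = 1.47e-04), Pkm (1.05, SE 0.17), Pgk1 (1.02), Slc16a3 (0.80), Gpi1 (0.69), Eno1 (0.61), Ldha (0.51) and Gapdh (0.49) also had a larger effect at day 1. Ldhb had the most negative difference (-1.15, SE 0.20, adjusted p = 2.56e-04), and Slc2a6 (-1.08), Pfkm (-0.87) and Pdk1 (-0.80) were likewise less positive at day 1. Slc2a6 and Slc2a3, both hexose transporters, thus differed between the days in opposite directions, and so did Ldha and Ldhb. The calls of Pfkm and Slc2a6 were lost in 11 and 10 of 23 alternatives. That of Gapdh was lost in 4 (with a replicate block, adjusted p = 0.0602, and without uninjured library 5 of day 1 or uninjured library 1 or 3 of day 7), that of Ldha in 3 (with a replicate block, 0.0542, and without uninjured library 1 or 3 of day 7) and that of Slc16a3 in 3 (without injured library 2 or uninjured library 2 or 3 of day 7). The count of 9 was 6 without uninjured library 3 of day 7, and the count of 4 was 2 without injured library 4 or uninjured library 3 of day 1, or injured library 4 or uninjured library 1 of day 7.

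Hif1a (-0.43, adjusted p = 0.0947), Egln3 (-0.36), Mif (0.29) and Vegfa (0.93, adjusted p = 0.172) did not differ between the days by this test. Among other pathway genes, the effect was larger at day 1 for 16 of 90 (10.5% of all genes) and smaller for 10 (9.09% of all genes). By size the larger effects were led by Ddit4 (3.16), Hilpda (1.94), Adpgk (1.47), an ADP-dependent glucokinase, and Edn1 (1.44). The smaller ones were led by Bhlhe40 (-1.75, with an adjusted p of 0.0535 by edgeR without uninjured library 2 of day 7).

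**Figure D4:**
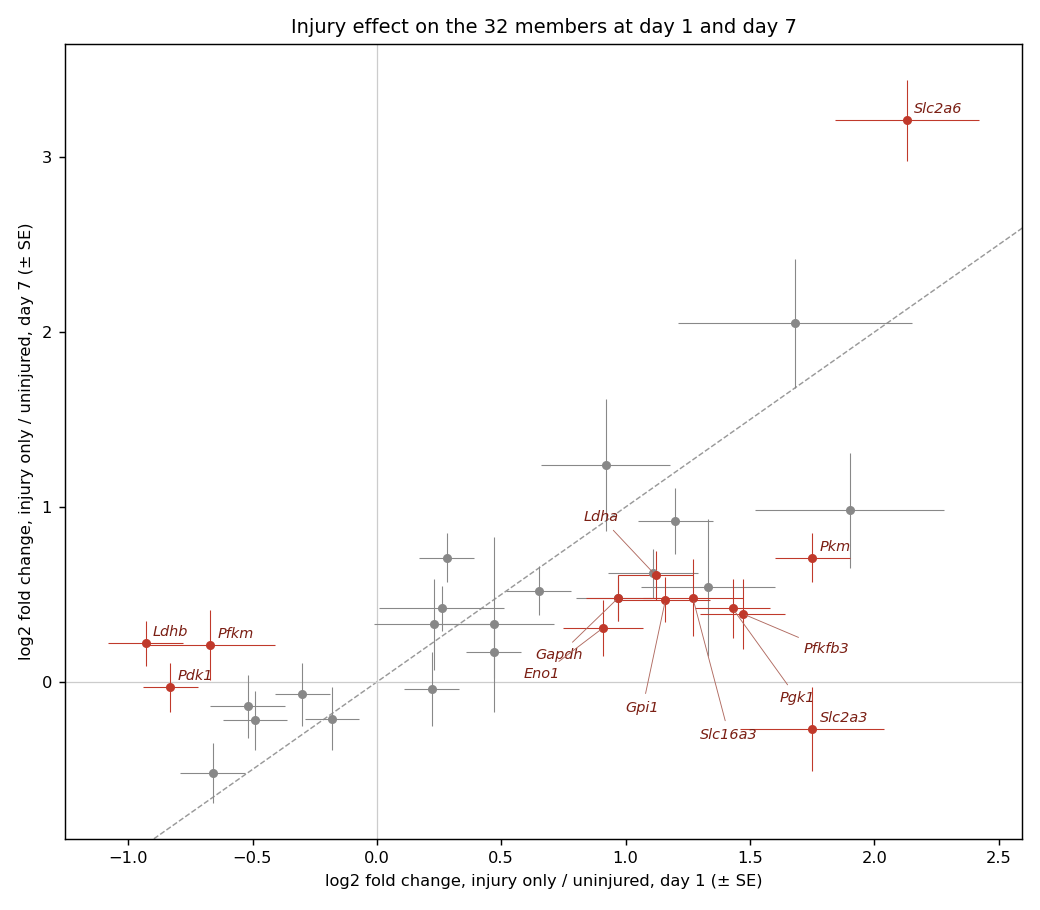
The log2 fold change after injury at day 1 (x axis) and day 7 (y axis) of the 32 members, with standard errors as bars; the dashed line marks equal effects, and the 13 members whose effect differed between the days are red and named. Slc2a3 (1.75 at day 1 and -0.27 at day 7) lies below the line and Slc2a6 (2.13 and 3.21) above it.

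At day 14, injury only against uninjured gave no call by edgeR (0 of 32 members, 0% of 14354 genes), and DESeq2 called 0 members and 97 genes. An unadjusted p under 0.05 was held by 4 members and 1963 of 14354 genes. This comparison rests on uninjured libraries that differ greatly. Slc2a3 read 7.18, 5.95 and 8.72 CPM after injury and 9.49, 12.2 and 155 CPM in uninjured libraries 1 to 3 (log2 fold change -3.03, SE 0.77, adjusted p = 0.316). Pfkp read 19.4, 19.7 and 13.9 CPM after injury and 11.7, 27.4 and 208 CPM without it (log2 fold change -2.24, SE 0.73, adjusted p = 0.316). In both, uninjured library 3, the one with high monocyte and neutrophil and low microglial markers, was the highest by far.

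Without that library the log2 fold changes were -0.59 for Slc2a3 (adjusted p = 0.538) and -0.15 for Pfkp (adjusted p = 0.901), and without uninjured library 1 they were -3.52 (adjusted p = 4.91e-03) and -2.73 (adjusted p = 0.0111), the 2 members then called lower. Slc2a6 differed among the uninjured libraries as well, at 51.5, 3.15 and 121 CPM, against 35.8, 47.0 and 46.4 CPM after injury. Uninjured library 2 was near the uninjured levels of days 1 and 7, and the other two were at or above the injured level.

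At day 30 no member was called (0 of 32, 0% of 14082 genes, 0 members also by DESeq2, 4 members and 639 genes at an unadjusted p under 0.05). Slc2a6 read 16.7, 13.1, 13 and 9.18 CPM after injury and 11.8, 4.37, 7.40 and 5.13 CPM without it, with overlap (log2 fold change 0.86, SE 0.31, adjusted p = 1). Egln1, the main oxygen-sensing hydroxylase, read 11.6, 15.9, 30.4 and 25.6 CPM after injury and 13.6, 12.2, 7.71 and 9.89 CPM without it (log2 fold change 0.94, SE 0.36, adjusted p = 1). The sum of the 16 enzymes was 2505 to 2771 CPM after injury and 2259 to 2689 CPM without it. The median log2 fold change of the members was 0.07, against 0.00 over all genes.

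At day 60 none of the 32 members was called (0.0416% of 12033 genes rose and 0% fell). DESeq2 called 0 members, and 1 member and 418 genes had an unadjusted p under 0.05. Hk2 read 61.2, 53.3 and 25.6 CPM after injury and 72.2, 65.9 and 62.4 CPM in uninjured libraries, just without overlap (log2 fold change -0.56, SE 0.25, adjusted p = 1). Pkm read 799, 673 and 1093 CPM after injury and 580, 593 and 765 CPM without it (log2 fold change 0.35, SE 0.17, adjusted p = 1). Between these 2 groups the depth differed, as given above.

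Clodronate was compared with vehicle liposomes in injured mice at each day, and no member was called on any day by edgeR. At day 1, 0.152% of all genes rose and 0.0344% fell. An unadjusted p under 0.05 was held by 3 members and 1212 of 14516 genes. DESeq2 called 0 members, and edgeR with no filter on low counts called 3 higher (281 of all genes were). Slc2a6 read 22.3, 33.5 and 41.9 CPM with clodronate and 17.0 and 21.9 CPM with vehicle in the earlier year, and 37.8, 31.6 and 17.8 CPM against 14.2 and 9.68 CPM in the later year. Within each year every clodronate library was above every vehicle one (log2 fold change 0.99, SE 0.28, adjusted p = 0.203 with year in the fit; 0.75 and 0.992 in the earlier year alone). Slc2a3 read 20.3, 31.7 and 43.9 CPM against 15.8 and 28.0 CPM in the earlier year, and 15.2, 44.9 and 11.9 CPM against 9.21 and 10.4 CPM in the later year (log2 fold change 0.89, SE 0.29, adjusted p = 0.305; 0.55 and 0.992 in the earlier year alone).

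The 16 enzymes summed to 4362 to 4572 CPM with clodronate and 4080 to 4622 CPM with vehicle in the earlier year, and to 5624 to 10113 and 6051 to 9110 CPM in the later year. All 5 libraries of the later year lay above all 5 of the earlier one. Pkm was at 1327 ± 54.5 CPM (SD, n = 3) with clodronate in the earlier year and at 2255 ± 667 CPM (SD, n = 3) in the later year. The years were not tested against each other.

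At day 7, 0.455% of genes rose with clodronate and 0.119% fell, and 8 members and 1877 of 14278 genes had an unadjusted p under 0.05. Pfkp read 39.2, 59.5, 23.0, 38.9 and 42.9 CPM with clodronate and 30.5, 18.1, 6.85 and 11.0 CPM with vehicle, where the lowest value of 6.85 is that of the shallow library 4 (log2 fold change 1.16, SE 0.38, adjusted p = 0.187). It passed with DESeq2, the 1 member that did (adjusted p = 0.0407), and also with no filter on low counts (0.0327) and without vehicle library 2 (0.0383). Hk1 read 79.9, 76.0, 63.8, 75.0 and 86.8 CPM with clodronate and 68.5, 68.4, 24.5 and 43.9 CPM with vehicle, where the low value of 24.5 is that of the shallow library 4 (log2 fold change 0.50, SE 0.19, adjusted p = 0.248).

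Of the other pathway genes 4 were called higher at day 7 with clodronate (0.455% of all genes were), 3 of them of glucose and lactate transport. Slc16a1, a lactate transporter (159 ± 43.6 against 63.0 ± 14.7 CPM, log2 fold change 1.29), Slc2a1, the glucose transporter GLUT1 (525 ± 133 against 218 ± 69.1 CPM, 1.23), Bsg, the partner protein of lactate transporters (1878 ± 471 against 930 ± 120 CPM, 0.98), and Adm (18.3 ± 5.59 against 4.20 ± 1.69 CPM, 1.97) rose (SD, n = 5 and n = 4; adjusted p between 3.94e-03 and 0.0160). All 4, picked by their calls in these same libraries, had every clodronate library above every vehicle library (3.06% of all genes did). With clodronate and vehicle fitted alone none of these 4 was called (Slc16a1 and Slc2a1 adjusted p = 0.140, Bsg 0.166, Adm 0.0924), and without vehicle library 5 the calls of Adm (0.0741) and Bsg (0.0677) were lost. Slc2a1, Slc16a1 and Bsg are known to be abundant in brain endothelium. Endothelial markers summed to 735 to 1529 CPM with clodronate and 202 to 600 CPM with vehicle, 2 of 6 were called higher (Cldn5 and Pecam1), and the part of these cells in the rises was not tested.

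At day 14 clodronate against vehicle gave 0 calls (0% of 14354 genes by edgeR, 0 members by DESeq2, 1 member and 785 genes at an unadjusted p under 0.05). The median log2 fold change of the members was nonetheless 0.47, against -0.00 over all genes. Gapdh, the enzyme often taken as a constant reference, read 302, 730, 716, 491 and 719 CPM with clodronate and 734, 257, 338, 321 and 290 CPM with vehicle (log2 fold change 0.60, SE 0.29, adjusted p = 0.940). Vehicle library 1 lay just above the highest clodronate library, and clodronate library 1 lay within the range of the other vehicle libraries. The same 2 libraries stood apart in the sum of the 16 enzymes (7519 CPM in vehicle library 1 against 2347 to 3096 CPM in the others, and 2582 CPM in clodronate library 1 against 4533 to 6927 CPM) and in Slc2a6 (110 against 19.5 to 30.2 CPM, and 10.1 against 69.3 to 138 CPM). Monocyte markers followed the same split, at 225 CPM in vehicle library 1 against 46.7 to 86.3 CPM, and 36.5 CPM in clodronate library 1 against 146 to 226 CPM. Other markers ranged widely too. Border macrophage markers summed to 79.4 to 466 CPM with clodronate and 163 to 418 CPM with vehicle, and microglial markers to 6668 to 14531 and 7816 to 12622 CPM. The part of these cells was not tested. With any 1 library left out, no member was called. Aldoc, the brain aldolase, read 5.14, 5.39, 8.20, 3.84 and 3.57 CPM with clodronate and 5.13, 6.91, 11.2, 16.5 and 12.2 CPM with vehicle (log2 fold change -1.01, SE 0.37, adjusted p = 0.852). The sum of 6 astrocyte markers was 134 to 148 CPM with clodronate and 153 to 189 CPM with vehicle, without overlap; its part was not tested.

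At day 30 clodronate gave 0 calls among members (0% of 14082 genes, 0 members by DESeq2, 5 members and 1199 genes at an unadjusted p under 0.05). Egln1 read 21.6, 25.1, 28.3 and 27.9 CPM with clodronate and 21.4, 5.82, 6.79 and 7.95 CPM with vehicle, so that vehicle library 1 stood far above the others (log2 fold change 1.28, SE 0.36, adjusted p = 0.387). Without that library Egln1 was called (log2 fold change 1.92, adjusted p = 5.40e-03), as it was with no filter on low counts (1.29, 0.0399). Bnip3 read 55.6, 48.0, 51.4 and 51.6 CPM with clodronate and 41.5, 34.6, 43.5 and 36.5 CPM with vehicle, with no overlap (log2 fold change 0.41, SE 0.12, adjusted p = 0.417).

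At day 60 there was likewise no call between clodronate and vehicle (0% of 12033 genes, 0 members by DESeq2, 2 members and 789 genes at an unadjusted p under 0.05). Hk2, the inducible hexokinase, read 52.1, 46.5, 44.4 and 48.0 CPM with clodronate and 78.0, 82.4, 92.9 and 70.3 CPM with vehicle, groups that did not overlap (log2 fold change -0.80, SE 0.22, adjusted p = 0.497). Aldoc read 20.2, 26.6, 17.4 and 19.4 CPM with clodronate and 42.6, 19.8, 32.2 and 33.3 CPM with vehicle (log2 fold change -0.65, SE 0.31, adjusted p = 0.761). With counts thinned to the shallowest library its log2 fold change was 0.02. Clodronate libraries held 2150009 to 9694385 counts and vehicle libraries 1109856 to 5271285.

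Whether the clodronate effect differed between the 5 days was tested in 1 fit. By edgeR 0 members passed (0.107% of 16773 genes did). Without vehicle library 1 of day 14, 3 members passed. The share of 0.107% is not that of this fit, as 3 to 295 of all genes passed with each library left out. An unadjusted p under 0.05 was held by 3 members and 2199 of 16773 genes, and DESeq2 called 2 members. Hk2 was nearest. Fitted day by day its log2 fold changes were -0.13, -0.47, 0.35, 0.06 and -0.80 from day 1 to day 60, and in the fit of all days together the lowest and the highest lay 1.12 apart (adjusted p = 0.0938; 0.0112 by DESeq2, 0.0273 with no filter on low counts and 0.0443 without vehicle library 1 of day 14). Aldoc had -0.12, 0.68, -1.01, -0.03 and -0.65 day by day, and 1.72 between the lowest and the highest in the fit of all days (adjusted p = 0.169; 0.0455 by DESeq2).

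Vehicle liposomes were set against injury only to show what injection of liposomes goes with. At day 1, 1 of 32 members fell (0.668% of 14516 genes fell) and 0 rose (0.207% of genes rose). An unadjusted p under 0.05 was held by 15 members and 2057 of 14516 genes. DESeq2 called 2 members lower and 0 higher (288 and 121 of all genes). With no filter on low counts edgeR called 9 lower and 1 higher (526 and 314 of all genes). The member that fell in the main fit was Pfkfb3, at 243 and 308 CPM in the vehicle libraries of the earlier year and 337 and 203 CPM in those of the later year, against 688 to 804 CPM with injury only (log2 fold change -1.36, SE 0.20, adjusted p = 1.09e-03). No vehicle library came near the injury-only level, and the vehicle range held that of the uninjured libraries (220 to 296 CPM). In the libraries of the earlier year alone the log2 fold change was -1.38 (adjusted p = 2.59e-04), and Pfkfb3 was called in every alternative (-1.45 to -1.23).

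Pkm in vehicle libraries of the earlier year was 1320 ± 148 CPM (SD, n = 2), against 1588 ± 274 CPM with injury only and 462 ± 51.7 CPM without injury (SD, n = 5 each). Of the 32 members 26 had a negative log2 fold change, and the median was -0.26 against -0.01 over all genes. Those with an unadjusted p under 0.05 included Pfkp (-1.10, adjusted p = 0.0891), Egln3 (-1.71, adjusted p = 0.146), Tpi1 (-0.63) and Pgk1 (-0.46). The injury-only libraries are in both this comparison and that with uninjured mice, so the 2 are not independent. Endothelial markers Flt1 and Ly6c1 fell too, with summed marker levels of 36.8 to 51.4 CPM in vehicle and 83.0 to 305 CPM in injury-only libraries; their part was not tested.

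At day 7, 0 members were called in vehicle against injury only (0.196% of genes rose, 0.14% fell). An unadjusted p under 0.05 was held by 7 members and 1730 of 14278 genes. DESeq2 called 1 member higher and 2 lower (137 and 113 of all genes). Pfkfb3 here read 256, 331, 451 and 275 CPM with vehicle and 180, 146, 154, 202 and 258 CPM with injury only, a direction opposite to day 1 (log2 fold change 0.80, SE 0.20, adjusted p = 0.0853; 0.0140 by DESeq2, 0.0173 with no filter on low counts and 0.0429 without injured library 5). The highest value is that of the shallow library 4. Aldoc read 5.81, 5.72, 3.91 and 4.94 CPM with vehicle and 16.1, 12.8, 9.27, 8.84 and 6.72 CPM with injury only, with no overlap (log2 fold change -1.04, SE 0.28, adjusted p = 0.114; 0.0265 by DESeq2). The astrocyte marker Gja1 was called lower in the same comparison (1.96 to 15.2 CPM with vehicle and 22.7 to 45.0 CPM with injury only), the 1 of 6 astrocyte markers that was, while the sum of the 6 overlapped (140 to 186 and 161 to 223 CPM); its part was not tested. Of the other pathway genes Hilpda rose, from 9.33 ± 1.08 (SD, n = 5) to 23.9 ± 8.20 CPM (SD, n = 4; log2 fold change 1.30, adjusted p = 0.0109), a call lost with the compared groups alone (0.0765) and without vehicle library 5 (0.0698).

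At day 30, 0 members were called in vehicle against injury only (0% of 14082 genes, 0 members by DESeq2, 3 members and 1212 genes at an unadjusted p under 0.05). With the shared library number as a block, 52 genes were called (48 higher and 4 lower) and still 0 members. The values that follow are from fits with no block. Egln1 read 21.4, 5.82, 6.79 and 7.95 CPM with vehicle and 11.6, 15.9, 30.4 and 25.6 CPM with injury only (log2 fold change -0.98, SE 0.36, not called), and without vehicle library 1 it was called lower (-1.62, adjusted p = 0.0294). Slc2a3 read 6.24, 8.84, 8.34 and 10.9 CPM with vehicle and 4.38, 6.06, 6.49 and 5.30 CPM with injury only (log2 fold change 0.62, SE 0.24, adjusted p = 0.502). Monocyte markers summed to 22.9 to 29.5 CPM with vehicle and 13.8 to 20.7 CPM with injury only, and their part was not tested.

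At day 60, 0 members were called in the same comparison (0% of genes rose and 0.00831% fell). DESeq2 called 0 members, and 4 members and 695 of 12033 genes had an unadjusted p under 0.05. Depth did not overlap between these groups, at 1109856 to 5271285 counts with vehicle and 8431455 to 12306417 with injury only. The part of depth in the values that follow was not tested. Hk2 was 78.0, 82.4, 92.9 and 70.3 CPM with vehicle and 61.2, 53.3 and 25.6 CPM with injury only, with no overlap (log2 fold change 0.84, SE 0.23, adjusted p = 0.521). Aldoc was 42.6, 19.8, 32.2 and 33.3 CPM with vehicle and 34.6, 93.5 and 71.6 CPM with injury only (log2 fold change -1.03, SE 0.32, adjusted p = 0.631; 0.0481 with no filter on low counts). The sums of oligodendrocyte markers (324 to 417 CPM with vehicle, 498 to 1043 CPM with injury only), monocyte markers (48.3 to 122 and 18.1 to 44.2 CPM) and erythroid markers (0 in all vehicle libraries, 27.2 to 231 CPM with injury only) did not overlap between these groups; their part was not tested.

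Over time, the level of Slc2a6 in injury-only libraries was 19.2 ± 7.23 CPM at day 1, 38.4 ± 4.02 at day 7, 43.1 ± 6.30 at day 14, 13 ± 3.07 at day 30 and 4.75 ± 4.00 CPM at day 60 (SD, n = 5, 5, 3, 4 and 3). The values of days 7 and 14 overlapped, as did those of days 1 and 30. These levels were not tested between days, and the names of these libraries carry an earlier year at day 14 and a later one at day 60 than at the other days, so they are a description. Pkm in the same libraries was 1588 ± 274, 659 ± 98.3, 781 ± 169, 479 ± 30.2 and 855 ± 216 CPM on these days. Ldhb was lowest at day 1 (370 ± 33.5 CPM) and highest at day 60 (1093 ± 203 CPM), where the uninjured level was high as well (995 ± 129 CPM, SD, n = 3).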

How the data were processed

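Counts per Ensembl gene were deposited by the authors as 1 file per library, not normalised; reads were aligned with STAR to mm10 (GRCm38), per the submitters' processing notes, and counted with HTSeq, per the file headers. RNA was amplified by 11 cycles of PCR, per the labels, without named molecular identifiers. No source names the strand setting, so overlapping genes may share reads. Percent values of uniquely aligned reads came from the authors' deposited run summary. Lines naming no gene were left out (2.59% to 22.4% of reads fell in no feature). No 2 libraries of a group agreed within sampling noise.

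Symbols and exon lengths came from GENCODE M21. The 32 members, their roles and the other lists were chosen with earlier results of these data known. Each day's 4 treatments were fitted with edgeR 4.0.16 in R 4.3.3 (TMM, filterByExpr with minimum count 10, quasi-likelihood F test, library year as a term at day 1), with Benjamini-Hochberg adjustment over all genes and calls at adjusted p under 0.05. The printed CPM use TMM over all 84 libraries. Standard errors (SE) were derived from each log2 fold change and its F statistic. Vehicle and injury only at day 14 differ in year and were not compared. Values in every library are given for up to 5 called members per direction with the largest fold change and a mean log2 CPM of 3 or more, or for the 2 with the smallest p; the examples over time and the Pkm, Gapdh and Slc2a6 values of other days were chosen after their values were seen. Library numbers were to count as pairs where every pair's deviations correlated above 0.1. This was true of 1 comparison, day 30 vehicle and injury only (4 pairs with correlations of 0.106 to 0.213, paired by the numbers in the library names). Its main values nevertheless come from the fit with no block, and the block was run as an alternative. Alternatives were DESeq2 1.42.0, its size factors, no filter, a block on library number, the compared groups alone, 1 year, thinned counts and each library left out. One gene of the microglial marker list is not reported here and was left out of its sums and counts.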

Additional observations from a re-analysis of the deposited data

Results flagged for a closer look

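For the members whose values in every library are given by the naming rule, the highest and lowest library were set against the others in the compared groups of 4 or 5 libraries. The other members were not screened. In 3 of 56 such sets of values a library stood apart (chance gives about 1 in 20). Hk3 was lowest in uninjured library 5 of day 1, at 174 CPM, where the others had 208 to 221 CPM. Gapdh was highest in vehicle library 1 of day 14, at 734 CPM against 257 to 338 CPM. Egln1 was highest in vehicle library 1 of day 30, at 21.4 CPM against 5.82 to 7.95 CPM.

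The injury effect differed between day 1 and day 7 for 13 members by edgeR's test of the difference. It was larger at day 1 for Slc2a3 (difference of log2 fold changes 2.02), Pfkfb3 (1.09), Pkm (1.05), Pgk1 (1.02), Slc16a3 (0.80), Gpi1 (0.69), Eno1 (0.61), Ldha (0.51) and Gapdh (0.49). It was more negative or smaller at day 1 for Ldhb (-1.15), Slc2a6 (-1.08), Pfkm (-0.87) and Pdk1 (-0.80).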

How the results depend on the processing

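One result changed sign: Aldoc for clodronate at day 60, not called, had a log2 fold change of -0.65 and of 0.02 with counts thinned to the shallowest library; the cause was not tested. No other result did under the alternatives run. The day 1 injury counts were 19 to 20 members higher and 5 to 6 lower with each library left out. All counts below come from edgeR unless DESeq2 is named, and the cause of each shift was not tested.

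With no filter on low counts, clodronate against vehicle gave 3 members higher and 382 genes at day 1, 1 and 339 at day 7, 1 and 26 at day 30, and 77 genes at day 60. Vehicle against injury only then gave 1 member higher, 9 lower and 840 genes at day 1, 1 member higher and 222 genes at day 7, 17 genes at day 30, and 1 member lower and 85 genes at day 60. Injury at day 60 gave 37 genes, and the clodronate effect by day gave 1 member and 534 genes.

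With DESeq2, injury gave 14 members higher and 1 lower at day 7 (1278 and 357 of all genes). It gave 97 genes at day 14 and 19 at day 60. Clodronate against vehicle gave 112 genes at day 1, 1 member and 414 genes at day 7, and 17, 33 and 17 genes at days 14, 30 and 60. Vehicle against injury only gave 2 members lower and 409 genes at day 1, 1 higher, 2 lower and 250 genes at day 7, 35 genes at day 30 and 29 at day 60. The clodronate effect by day gave 2 members and 570 genes.

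With the library number as a replicate block, injury gave 12 members higher and 1 lower at day 7 (763 and 186 of all genes). It gave 1 gene at day 60. Clodronate gave 13 genes at day 1, and the clodronate effect by day gave 0. Vehicle gave 2 members lower (82 of all genes) at day 1, 52 genes at day 30 and 0 genes at day 60. With the compared groups alone, injury gave 12 members higher and 1 lower at day 7 (1173 and 361 of all genes). It gave 1 gene each at days 30 and 60. Clodronate then gave 0 genes at days 1 and 7, and vehicle gave 14, 17 and 0 genes at days 1, 7 and 60. Libraries of the earlier year alone gave 3 genes for clodronate at day 1, and counts thinned to the shallowest library gave 7 genes for vehicle at day 60.

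With each library left out, injury gave 6 to 13 members higher and 592 to 1068 genes at day 7, 0 to 2 members lower and 0 to 1835 genes at day 14, and 0 to 32 and 2 to 6 genes at days 30 and 60. Clodronate gave 0 to 70 genes at day 1, 0 to 1 member and 12 to 355 genes at day 7, 0 to 1 member and 0 to 140 genes at day 30, and 0 to 1 gene at day 60. Vehicle gave 26 to 177 genes at day 1, 0 to 1 member in each direction and 15 to 91 genes at day 7, 0 to 1 member lower and 0 to 8 genes at day 30, and 0 to 9 genes at day 60. The difference between days 1 and 7 gave 6 to 12 members with a larger effect and 2 to 4 with a smaller one at day 1, and the clodronate effect by day gave 0 to 3 members and 3 to 295 genes. Day 60 libraries held as few as 1109856 counts; thinned to that total, injury gave 6 genes and clodronate 0.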
